A study of Homo sapiens with 2 samples.

Results

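Transcripts of 9 genes of the tight junction were compared in A2780 cells: the claudins CLDN3, CLDN4, CLDN6 and CLDN7, occludin (OCLN), the plaque scaffolds TJP1, TJP3 and CGN, and the polarity adaptor PARD6B. They were taken by gene symbol, 9 of 57169 distinct symbols in the table, and all 9 were found. The choice of the 9 was made with earlier results of these data known. A2780 is a long-established line of human ovarian cancer cells. The study sequenced poly(A)-selected RNA from 2 libraries, 1 per group. The library labelled shControl came from cells given a wild-type genotype in the labels and an empty vector in the design text. The library labelled shJAM3 came from cells in which JAM3, a junctional adhesion molecule, was targeted for stable knockdown. The titles carry the prefix sh, while the design text speaks of siRNA. The sources used here give no construct sequence and do not say whether the knockdown line was 1 clone. The comparison asks how the junction transcripts differ when JAM3 is targeted.

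Tight junctions are belts of contact near the apical edge of epithelial cells that limit the passage of solutes between neighbouring cells. Claudins are 4-pass membrane proteins that polymerise into the strands of the belt and set which ions cross it, and occludin is a further 4-pass protein of these strands. In the cytoplasm the zonula occludens proteins (the TJP genes) and cingulin (CGN) form a plaque that ties the strands to actin. The PAR complex, in which PARD6B is an adaptor, directs where the belt is built. CLDN3, CLDN4 and CLDN7 are known as claudins of high abundance in many ovarian carcinomas.

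The level of each gene is given in FPKM, the number of fragments divided by gene length in kilobases and by library size, as the authors deposited it. Whole fragment numbers could be recovered from it and are printed beside it. A gene was called measured when its mean over both libraries was at least 1 FPKM. The ratio of the libraries is shJAM3 over shControl in FPKM, with an exact 95% interval from the fragments. The log2 ratio adds 1 FPKM to each level first, which draws weakly expressed genes towards 0. Since each group is a single library, the conditions could not be tested against each other. Intervals cover counting error only, leave out the spread between cultures, and are too narrow where PCR copied a fragment. A log2 ratio of at least 1 in size is called a 2-fold difference.

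The libraries held 15570262 fragments (shControl) and 16455079 (shJAM3), with 21954 and 22401 genes detected. The targeted gene was barely detected in either. JAM3 had 18 fragments (0.215 FPKM) in shControl and 14 (0.154 FPKM) in shJAM3, a ratio of 0.716 with an interval of 0.330 to 1.52. NCAPD3, an opposite-strand neighbour at 27.5 and 36.0 FPKM, overlaps 8.53% of the JAM3 exon bases, so without strand information some of these few fragments may belong to NCAPD3. The knockdown stated in the design text, over 70%, is a ratio below 0.3, which lies under that interval, and for both reasons the label shJAM3 is used below as a library name only. The keratins of simple epithelia were abundant: KRT18 at 145 and 165 FPKM, KRT8 at 139 and 153, and KRT7 at 140.3 and 93.4. Other markers of Müllerian carcinoma were low or absent, among them PAX8 (1.12 and 0.527 FPKM), EPCAM (0.904 and 0.690) and WT1 (1 and 0 fragments). MUC16 went the other way, with 320 fragments (0.475 FPKM) in shControl and 783 (1.07 FPKM) in shJAM3, a ratio of 2.25 (1.98 to 2.57). Summed markers of leukocytes went from 2.78 FPKM in shControl to 1.36 in shJAM3 with PTPRC at 0 in both, those of endothelium from 0.699 to 0.442, and those of fibroblasts from 3.84 to 3.00. Markers of mesothelium summed to 206 and 132 FPKM, nearly all of it MSLN (198 and 127), and all 3 that were measured were lower in shJAM3. The 3 had a median log2 ratio of -0.62, or -0.14 once centred on genes of like GC content (described below). The rest of the mesothelium list was barely detected, CALB2 with 8 and 2 fragments and LRRN4 with 0 and 3. The part of these markers in the results below was not tested.

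**Figure D1:**
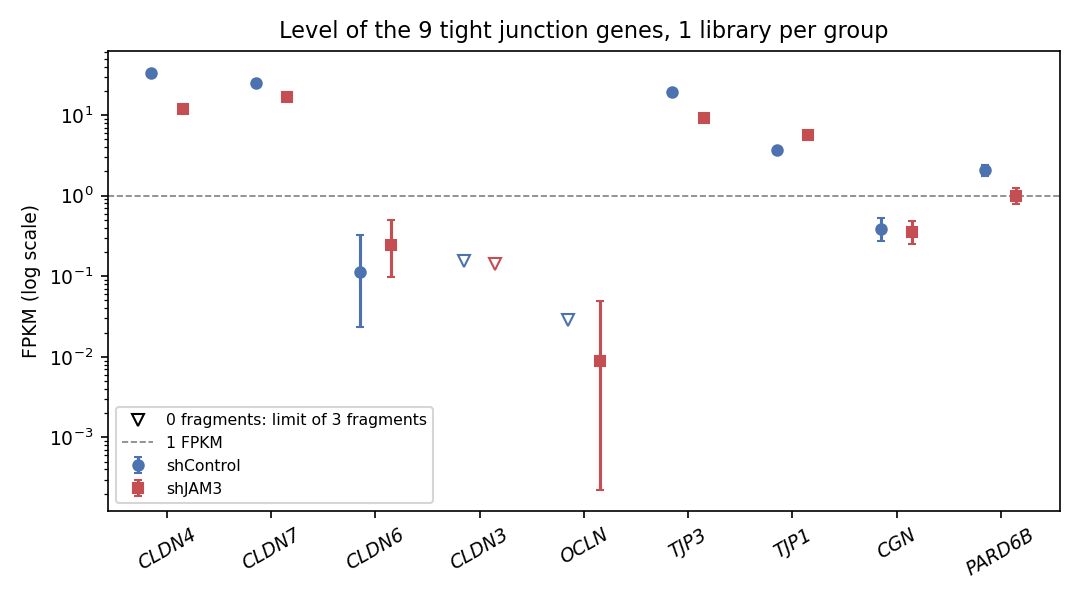
Level of the 9 tight junction genes in FPKM (log scale) in shControl and shJAM3, 1 library each. Bars are exact 95% Poisson intervals of counting error, and the dashed line is 1 FPKM. Open triangles mark a fixed limit of 3 fragments where the count was 0. CLDN4, CLDN7 and TJP3 are the most abundant in both libraries, and TJP1 is the only measured gene that is higher in shJAM3.

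Of the 9 genes, 5 were measured: CLDN4, CLDN7, TJP3, TJP1 and PARD6B. The other 4, CLDN3, CLDN6, OCLN and CGN, were below 1 FPKM in both libraries. Among the measured genes 4 were lower in shJAM3 and 1, TJP1, was higher. Across all 10499 measured protein-coding genes, 5316 (50.6%) were lower and the median log2 ratio was -0.01, against a median of -0.61 over the 5. The 2-fold rule was passed by CLDN4 alone on the lower side, where 1.41% of protein-coding genes passed it, and by none of the 5 on the higher side, where 0.391% did. Without the added 1, CLDN4, TJP3 and PARD6B had ratios at or below 0.5, as did 3.04% of protein-coding genes. Counting intervals lay below 1 for the 4 lower genes, but also for 36.8% of all protein-coding genes, and above 1 for TJP1, but also for 34.5% of them. An interval that leaves out 1 is therefore common between these libraries.

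Short stretches of the promoters are shown for CLDN4 and CLDN7, the 2 measured claudins, because their matches to motifs of known epithelial regulators differ. The 250 bases before each RefSeq start site (GRCh38.p14) were searched on both strands for CAGGTG, an E-box that SNAI and ZEB repressors bind, TGANTCA, an AP-1 element, AACNGGTT, a grainyhead element, and GGGCGG, a GC box. RefSeq promoters were found for 8 of the 9 genes, 14 windows in all, and no match overlapped another motif's match. The stretches run 5′ to 3′ along the gene, with up to 8 bases on each side of a match and the match in capitals:
CLDN4, chr7:73830746-73830768 (+), match 242 bases before the start: ctgggctgTGATTCAgtgtctgt
CLDN4, chr7:73830827-73830849 (+), match 161 bases before the start: ctggatagTGACTCAgggacccg
CLDN7, chr17:7262639-7262660 (-), match 174 bases before the start: ttcctcctCACCTGggcaagga
CLDN7, chr17:7262600-7262621 (-), match 135 bases before the start: ttccggttCAGGTGagtgtccc
CLDN7, chr17:7262479-7262506 (-), matches 20 and 9 bases before the start: catatactCAGGTGcgcccCACCTGtcc

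The CLDN4 window held 2 TGANTCA matches and no CAGGTG. Of all 35116 RefSeq promoter windows, 6.57% held at least 1 TGANTCA and 0.402% at least 2. The CLDN7 window held 4 CAGGTG matches and no TGANTCA. At least 1 CAGGTG was in 17.5% of all windows and at least 4 in 0.122%. Both windows were chosen for display after their matches were seen, so these shares are a description and not a test. A second RefSeq start of CLDN7, further upstream, had a window with none of the 4 motifs. All bases of the CLDN4 and CLDN7 stretches lie within annotated exons (GENCODE 29), of whichever gene, so these windows are not outside annotated transcribed sequence.

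Among the other genes, each of the 2 OCLN windows held 1 CAGGTG, as did 1 of the 4 TJP1 windows (88 bases before the start) and 1 of the 2 TJP3 windows (7 bases before the start). The CGN window held 1 AACNGGTT, 27 bases before the start, a motif found in 1.49% of all windows. CLDN3 and CLDN6 held only GGGCGG, which is in 42.6% of windows. A match is a description of letters and shows no binding, and the study measured no factor at these sites.

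CLDN4 (ENSG00000189143, chr7:73799542-73832693, plus strand, GRCh38) encodes claudin 4, a receptor of the Clostridium perfringens enterotoxin. It was the most abundant of the 9 in shControl and the one with the lowest ratio among the 5 measured. There were 2397 fragments in shControl and 921 in shJAM3. Its level was 33.2 FPKM (31.9 to 34.5) in shControl and 11.7 FPKM in shJAM3, where the counting interval reached up to 12.5, so the intervals are far apart. The ratio was 0.354 (0.328 to 0.382), a level 2.83 times lower in shJAM3, with a log2 ratio of -1.42. Ranked from the lowest log2 ratio, CLDN4 was number 22 of 10499 protein-coding genes. In shControl 1479 protein-coding genes had a higher FPKM than CLDN4, and in shJAM3 3823 did.

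CLDN7 (ENSG00000181885, chr17:7259903-7263983, minus strand) encodes claudin 7, which also lies along the lateral membrane and is known to associate with EPCAM. It had 966 fragments (25.2 FPKM) in shControl and 690 fragments (16.6 FPKM) in shJAM3. The ratio was 0.658 (0.596 to 0.726) and the log2 ratio -0.58, so CLDN7 was lower in shJAM3 by less than 2-fold and stood at rank 1012 from the lowest. Its exons share 10.8% of their bases with AC003688.1 on the same strand, which is at 0 FPKM in both libraries. A further 1.52% is shared with ELP5 on the opposite strand, at 17.2 and 16.2 FPKM, and without strand information reads from that stretch cannot be told apart.

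Claudin 4 and claudin 7 transcripts exchanged their order. In shControl the CLDN4 level was 1.32 times that of CLDN7, and in shJAM3 it was 0.707 times. The change in this quotient was 0.538-fold (0.474 to 0.610). The quotient is taken within a library, so no scaling between the libraries enters it. With FPK computed from each gene's longest transcript instead of its exon union, the quotients were 1.15 and 0.617, in the same order. A GC-centred log2 difference of -0.85 between the genes equals the uncentred one, because their transcripts have similar GC contents (57.5% and 59.6%).

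CLDN6 (ENSG00000184697, chr16:3014712-3020071, minus strand), a claudin of embryonic epithelia that returns in some germ cell and ovarian tumours, had 3 fragments in shControl and 7 in shJAM3. Its levels were 0.112 and 0.241 FPKM. The ratio of 2.15 had an interval of 0.491 to 12.9, so a difference was not detectable at this depth. CLDN6 shares 2.30% of its exon bases with TNFRSF12A on the opposite strand, a far more abundant gene (71.4 and 55.8 FPKM).

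CLDN3 (ENSG00000165215, chr7:73768997-73770270, minus strand), the second receptor of the same enterotoxin, had 0 fragments in both libraries. A count of 0 allows up to 3 fragments, a level of 0.153 FPKM in shControl and 0.141 in shJAM3. CLDN3 lies 29271 bases from CLDN4 on chromosome 7, so the neighbours differ from no fragment to 2397 fragments in shControl. CLDN4 and CLDN7 were the most abundant claudins of these cells, while CLDN3 was not detected.

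The make-up of all claudin transcripts differed between the libraries. The table holds 23 claudin genes by symbol, of which 7 had no fragment in either library and 13 had more than 3 fragments in at least 1. Their FPKM summed to 74.9 in shControl and 42.7 in shJAM3, a quotient of 0.570. CLDN4 made up 44.3% of the shControl sum and 27.5% of the shJAM3 sum. CLDN7 made up 33.7% and 38.9%, although its own level was lower in shJAM3. CLDN12, a claudin without the usual binding motif for plaque scaffolds, was at 5.22 and 6.15 FPKM, and its share went from 6.97% to 14.4%. CLDN4 and CLDN7 together held 77.9% of claudin FPKM in shControl and 66.4% in shJAM3.

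**Figure D2:**
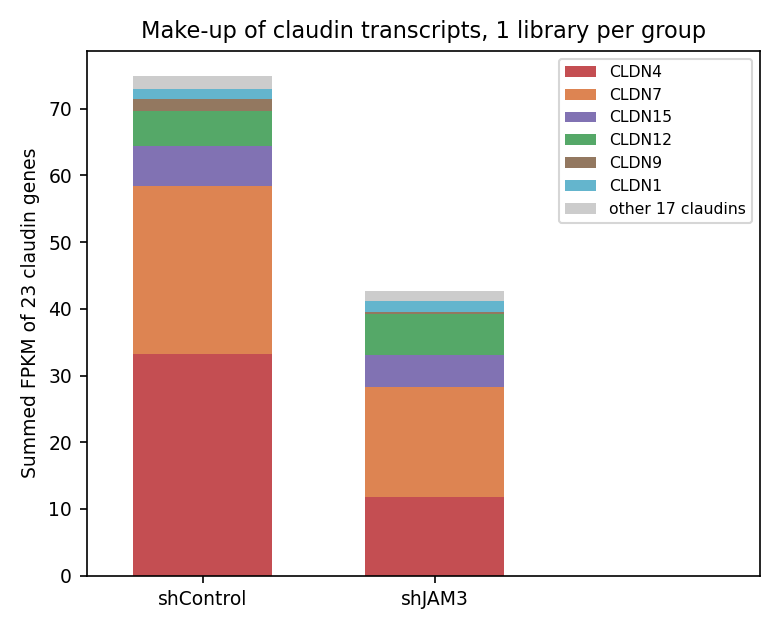
Summed FPKM of the 23 claudin genes in shControl and shJAM3, 1 library each, stacked by gene. The stack is 74.9 FPKM high in shControl and 42.7 in shJAM3, and CLDN4 (33.2 and 11.7 FPKM) makes up most of the gap.

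OCLN (ENSG00000197822, chr5:69492292-69558104, plus strand), which gives occludin, had 0 fragments in shControl and 1 fragment in shJAM3. The 0 allows up to 0.0289 FPKM in shControl, and the level in shJAM3 was 0.00887 FPKM. Its pseudogene OCLNP1, a partial copy that may share reads with OCLN, had 11 fragments in shControl and 2 in shJAM3. The copies summed to 11 and 3 fragments, so occludin transcripts were at the edge of detection even if every pseudogene read came from OCLN.

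TJP3 (ENSG00000105289, chr19:3708109-3750813, plus strand) encodes ZO-3, a zonula occludens scaffold of epithelial cells that binds claudin tails through PDZ domains. It was the third most abundant of the 9 genes in both libraries. There were 1237 fragments (19.1 FPKM) in shControl and 641 fragments (9.11 FPKM) in shJAM3. The ratio was 0.477 (0.433 to 0.525), a level 2.10 times lower in shJAM3. Its log2 ratio of -0.99 lay just inside the 2-fold rule, at rank 158 from the lowest of 10499.

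TJP1 (ENSG00000104067, chr15:29699367-29968865, minus strand) encodes ZO-1, the general zonula occludens scaffold, which is also made in cells without tight junctions. It had 630 fragments (3.64 FPKM) in shControl and 1048 fragments (5.58 FPKM) in shJAM3. The ratio was 1.53 (1.39 to 1.69) and the log2 ratio 0.50, at rank 864 from the highest. TJP1 and TJP3, which belong to the same protein family, thus lay on opposite sides of 1.

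Within a library, the TJP3 level was 5.25 times that of TJP1 in shControl and 1.63 times in shJAM3. This quotient changed 0.312-fold (0.271 to 0.358), and TJP3 remained the more abundant of the 2. The quotient of CLDN4 to TJP1 changed more, from 9.12 to 2.11, a 0.231-fold change (0.204 to 0.262). CLDN7 to TJP1 went from 6.93 to 2.98, a 0.429-fold change (0.373 to 0.495). After GC centring the differences on the log2 scale were -0.95 for TJP3 against TJP1, -1.56 for CLDN4 against TJP1 and -0.71 for CLDN7 against TJP1.

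CGN (ENSG00000143375, chr1:151510510-151538692, plus strand) encodes cingulin, which links the ZO proteins to actomyosin. It had 39 fragments in each library, 0.384 FPKM in shControl and 0.353 in shJAM3. The ratio of 0.921 had an interval of 0.576 to 1.47, so a 2-fold difference in either direction lay outside what the counts allow while a smaller one was not detectable.

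PARD6B (ENSG00000124171, chr20:50731544-50756795, plus strand) encodes an adaptor that joins atypical protein kinase C to PAR3 and CDC42. It had 149 fragments (2.05 FPKM) in shControl and 79 fragments (1.00 FPKM) in shJAM3. The ratio was 0.488 (0.367 to 0.646), a level 2.05 times lower in shJAM3, close to that of TJP3 and with a wider interval. On the log2 scale with the added 1 the value was -0.61, since both levels are near 1 FPKM.

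CLDN4 was also compared with TJP3 and PARD6B within each library. The CLDN4 to TJP3 quotient went from 1.74 to 1.29, a 0.741-fold change (0.655 to 0.839). CLDN4 to PARD6B went from 16.2 to 11.7, a 0.725-fold change (0.542 to 0.975). PARD6B to TJP3 was 0.107 in shControl and 0.110 in shJAM3, and the interval of its change, 0.756 to 1.38, held 1. Of the 10 pairs that the 5 measured genes form, 9 had an interval that left out 1. For CLDN7 to PARD6B it did so only just (1.00009 to 1.82). The share over pairs of other genes was not computed. For single protein-coding genes such intervals are common, at 36.8% below 1 and 34.5% above 1. The order by ratio was CLDN4, then TJP3 and PARD6B, whose difference was within counting error, then CLDN7, then TJP1.

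**Figure D3:**
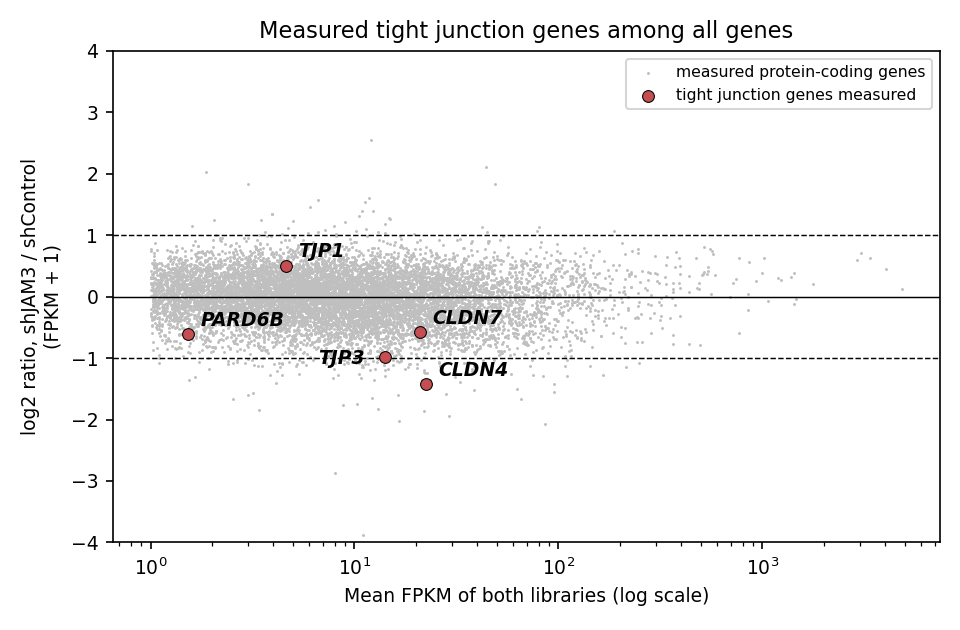
Log2 ratio of shJAM3 to shControl (FPKM + 1) against the mean FPKM of both libraries (log scale), for measured protein-coding genes (grey) and the 5 measured tight junction genes (named). The horizontal lines mark log2 ratios of -1 and 1. CLDN4 lies at -1.42, below the lower line, TJP3 lies at -0.99, just inside it, and TJP1 lies at 0.50.

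The ratio of the libraries moved with the GC content of the transcripts, and this bears on the claudins and TJP3. Split into 10 groups by GC content of the longest transcript, protein-coding genes went from a median log2 ratio of 0.23 in the lowest group (31.3% to 38.7% GC) to -0.44 in the highest (62.3% to 74.7%). TJP3 has 63.2% GC, CLDN7 59.6%, CLDN4 57.5%, TJP1 44.8% and PARD6B 40.0%. Centred on the median of genes of like GC content, CLDN4 was at -1.21, TJP3 at -0.61, CLDN7 at -0.37 and TJP1 at 0.35. PARD6B moved the other way, from -0.61 to -0.80, since genes as low in GC were higher in shJAM3 as a rule. CLDN4 then stood at rank 32 from the lowest, PARD6B at 205, TJP3 at 500 and CLDN7 at 1519. All 5 kept their side of 0, and CLDN4 remained past the 2-fold rule, as did 0.705% of protein-coding genes on the lower side. The part of GC content in these differences was not tested.

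**Figure D4:**
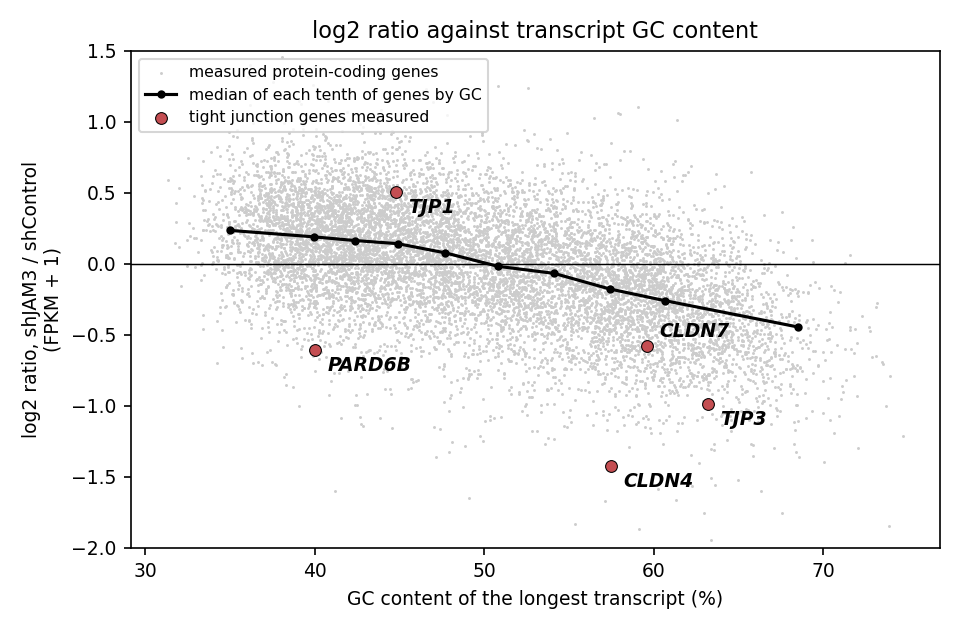
Log2 ratio of shJAM3 to shControl (FPKM + 1) against the GC content of the longest transcript, for measured protein-coding genes (grey) and the 5 measured tight junction genes (named). The black line joins the medians of 10 groups by GC content and falls from 0.23 to -0.44, and CLDN4, TJP3, CLDN7 and PARD6B lie below it while TJP1 lies above. The axis leaves out 12 genes.

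The rest of the tight junction was followed in a list of 61 other genes, of which 30 were measured. Of these, 22 were lower and 8 higher in shJAM3, with a median log2 ratio of -0.13. After GC centring 17 were lower and 13 higher, with a median of -0.07. The 2-fold rule was passed by 1 of the 30, CLDN9, on the lower side and by none on the higher side. The list's median lies nearer to that of all protein-coding genes (-0.01) than to that of the 5 measured genes (-0.61).

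Among the other claudins and claudin-like genes, 5 of 21 were measured, with 2 lower and 3 higher, or 4 lower and 1 higher after GC centring. CLDN9, a claudin known from the inner ear, had 58 fragments (1.84 FPKM) in shControl and 12 fragments (0.351 FPKM) in shJAM3, a ratio of 0.191 (0.0931 to 0.359) and a log2 ratio of -1.07. After GC centring CLDN9 was at -0.69, inside the 2-fold rule. It lies 206 bases from CLDN6 on chromosome 16, which was hardly detected. CLDND1, a claudin-domain gene, had a ratio of 1.49 (1.28 to 1.73), CLDN12 one of 1.18 (1.05 to 1.32) and CLDN15, a claudin that forms cation channels, one of 0.796 (0.664 to 0.954). After GC centring CLDN12 moved from 0.20 to -0.03 on the log2 scale and CLDN1 from 0.03 to -0.15, so their direction turned, while CLDND1 stayed above 0 at 0.23. The ratio of CLDN4, 0.354, lay below the intervals of all 5 but CLDN9.

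Of 16 other plaque scaffold genes 11 were measured, 8 of them lower and 3 higher, with a median log2 ratio of -0.10 and none past the 2-fold rule. After GC centring 6 were lower and 5 higher, with a median of -0.06. The exchange factor ARHGEF2, which cingulin holds at the junction, had a ratio of 0.688 (0.652 to 0.726). MPDZ, a multi-PDZ scaffold, had a ratio of 1.33 (1.16 to 1.53), on the same side as TJP1. TJP3 was lower than each of the 11 other scaffolds measured in its ratio of the libraries.

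Of 19 other polarity genes 14 were measured, 12 of them lower and 2 higher, with a median log2 ratio of -0.23. After GC centring 7 were lower and 7 higher, with a median of -0.10. None passed the 2-fold rule. PARD3, the scaffold that binds PARD6B, had levels of 11.6 and 7.68 FPKM. Its ratio was 0.659 (0.603 to 0.721) and its GC-centred log2 ratio -0.55. SCRIB, the scaffold of the basolateral complex, had levels of 56.4 and 34.5 FPKM, and its ratio was 0.612 (0.587 to 0.639). LLGL2, its partner, had a ratio of 0.648 (0.618 to 0.679). After GC centring SCRIB was at -0.19 and LLGL2 at -0.22. PARD6A, a paralogue of PARD6B, had a ratio of 0.717 (0.522 to 0.983) but a GC-centred log2 ratio of 0.01, and PRKCI, the kinase that PARD6B carries, was on the higher side at 1.22 (1.16 to 1.29).

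**Figure D5:**
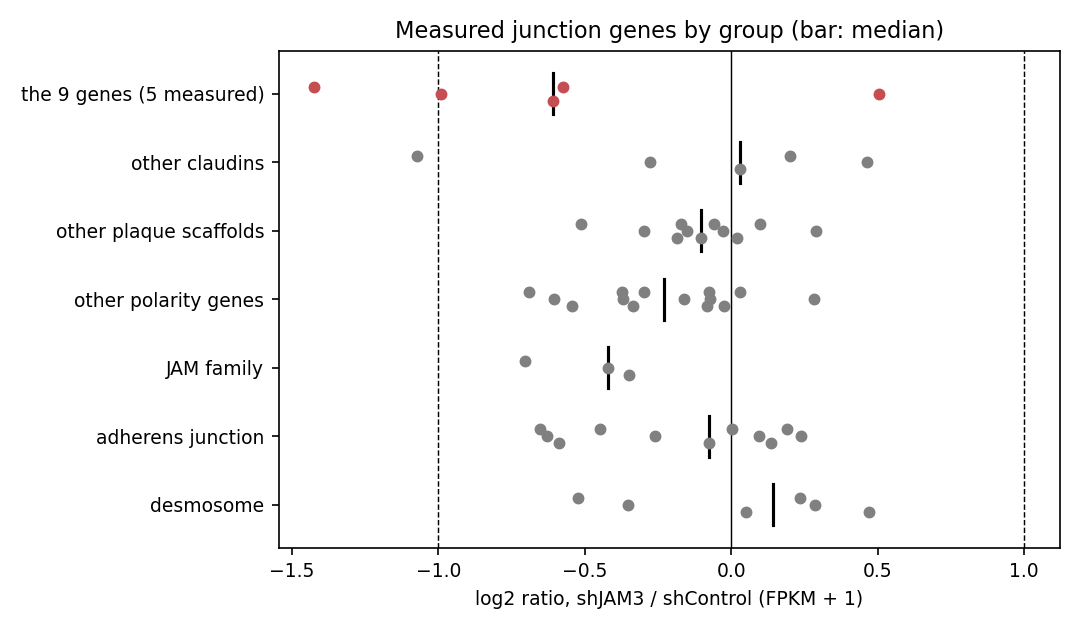
Log2 ratio of shJAM3 to shControl (FPKM + 1) of measured genes in each group of junction genes, with the group's median as a bar. The 5 measured genes of the 9 have a median of -0.61, the other groups of the tight junction lie between -0.23 and 0.03, and the JAM family lies at -0.42 with 3 genes.

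The receptors related to the targeted gene were few. Of 6 JAM family and related genes 3 were measured, and all 3 were lower. F11R, which encodes JAM-A and recruits the PAR complex, stood at 8.51 FPKM in shControl and 4.83 in shJAM3. Its ratio was 0.568 (0.501 to 0.643), and another gene overlaps 36.6% of its exon bases. CXADR, a virus receptor of the junction, had a ratio of 0.724 (0.618 to 0.847) and ESAM one of 0.734 (0.662 to 0.814). The CLDN4 ratio of 0.354 lay below all 3 of these intervals, and the TJP3 ratio of 0.477 did too. After GC centring the 3 receptors had a median log2 ratio of -0.54, against -0.61 for the 5 measured tight junction genes. F11R was then at -0.79, below TJP3 at -0.61, while CXADR (-0.54) and ESAM (-0.37) lay above TJP3. CLDN4, at -1.21, remained below all 3.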

How the data were processed

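Per the labels' protocols, poly(A) RNA was pulled down with oligo-dT beads and fragmented, and random-primed cDNA was amplified by PCR. No strand-marking step and no molecular identifiers are described. The authors deposited 1 table of FPKM with 58735 rows. The submitters' processing notes name, without saying what each did, the aligners HISAT2 (version 2.0.5) and STAR, the counter featureCounts (version 1.5.0-p3), the packages edgeR (version 3.22.5) and DESeq2 (version 1.20.0), and also fastp, STAR-Fusion and GATK (version 4.1.1.0). No genome build is named in the labels, but all 58735 identifiers, starts, symbols and exon-union lengths equal those of GENCODE 29 (GRCh38).

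Fragment numbers were recovered by dividing FPKM times gene length by the smallest step of each library, and 100% of values came out whole (tolerance 0.001 fragments). The implied library sizes were 0.987 and 1.01 times the recovered totals, so the deposited values carry a further scaling by a method not given in the sources used here. Of rows that share a symbol, the one with the highest mean was kept, which left out 1566.

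Ratios, exact conditional binomial intervals at 95% (shJAM3 against shControl) and exact Poisson intervals (levels) were computed with Python 3.11.15, numpy and scipy, and checked on simulated data. GC content is that of the longest GENCODE transcript, and centring used the medians of 20 GC bins. Of the 10499 measured protein-coding genes, 10496 had a GC value. Promoters are from RefSeq, and PARD6B had no entry.

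The rule for naming genes admitted the 9 genes, JAM3 and genes sharing exon bases with a named one. From each list it admitted those past the 2-fold rule and up to 4 measured genes with the log2 ratios largest in size. Not every gene that the rule admits is named. CLDN1, EPCAM, PAX8, WT1, MUC16, PTPRC, OCLNP1 and PRKCI, and SNAI2, ZEB1 and KLF4, were named after their values were seen. So were KLF5, CALB2, LRRN4, CDH1 and CDH2. The 9 genes and all lists were chosen with earlier results of these data known. Alternatives were another added constant, other scalings, other filters and GC centring. Some genes of the lists are not reported here.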

Additional observations from a re-analysis of the deposited data

How the results depend on the processing

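With 1 library per group, the number of cultures limits every value and no replicate could be left out. Under the alternatives run, the values of the single genes gave 31 of 40 within the counting interval of the main value, and 9 beyond it. The 5 measured genes kept their sign. After GC centring 2 genes below 1 FPKM changed sign, OCLN (0.01 to -0.18, or -0.10 with 0.1 FPKM added) and CGN (-0.03 to 0.13, or 0.08). With 0.1 FPKM added in place of 1, 2 of the 9 genes passed the 2-fold rule (CLDN4 and TJP3), their median was -0.97, and 288 protein-coding genes were at least 2-fold lower in place of 148. Without a filter on low values the median was -0.30 over 8 genes. A minimum mean of 5 FPKM left 3 genes, with a median of -0.99, and none of the other tight junction genes passed the rule. The same number, 0, passed after GC centring, when 74 protein-coding genes did. With 0.1 FPKM added and GC centring together, chosen after seeing the data, 2 passed (CLDN4 and PARD6B, at -1.19), TJP3 did not, and 164 protein-coding genes were at least 2-fold lower. The cause of these shifts was not tested, beyond the smaller or larger set of genes that each filter admits. Other scalings put the median of all protein-coding genes at 0.03 and -0.01 and changed no call among the 9. Fragment numbers limit CLDN3, CLDN6, OCLN and CGN.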

Other observations

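Transcription factors of epithelial identity and of its loss were the list, outside the tight junction, with the lowest median log2 ratio among those with at least 5 measured genes. The others of that size were only adherens junctions and desmosomes. Of lists with fewer measured genes, mesothelium (3 genes, -0.62) and leukocytes (1 gene, -0.89) lay lower. Of the 16 transcription factor genes listed 8 were measured, with 5 lower, 3 higher and a median of -0.59. After GC centring 6 were lower and 2 higher, with a median of -0.46. ELF3, an ETS factor of epithelial cells, had 17.8 FPKM in shControl against 7.98 in shJAM3. Its ratio was 0.449 (0.415 to 0.485) and its log2 ratio -1.07. TWIST2, a factor of mesenchymal cells, had 13.9 and 6.29 FPKM. Its ratio was 0.451 (0.379 to 0.537) and its log2 ratio -1.03. Both lay inside the 2-fold rule after GC centring, at -0.91 and -0.88. The related TWIST1 had a ratio of 0.549 (0.429 to 0.699). SNAI1, whose product binds the CAGGTG motif, had 27.0 and 17.6 FPKM, and its ratio was 0.653 (0.581 to 0.733). KLF5, the most abundant of the 8 in both libraries, had 73.3 and 48.5 FPKM. Its ratio was 0.662 (0.632 to 0.693), and after GC centring its log2 ratio was -0.67. ZEB1 (1.18), KLF4 (1.10) and SNAI2 had ratios above 1, and the intervals of all 3 left out 1. After GC centring ZEB1 turned to -0.04 on the log2 scale, SNAI2 was at 0.04 and KLF4 at 0.22.

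Desmosomes and adherens junctions, the other adhesive contacts of epithelial cells, did not share the median of the 5 measured tight junction genes. As all these genes were chosen with earlier results of these data known, this too is a description only. Of 12 desmosome genes 6 were measured, 2 lower and 4 higher, with a median log2 ratio of 0.14, or 3 lower and 3 higher with a median of 0.01 after GC centring. They ranged from PKP3 at a ratio of 0.685 (0.638 to 0.736) to DSG2, a desmosomal cadherin, at 1.40 (1.33 to 1.46). GC centring moved PKP3 from -0.53 to -0.03 on the log2 scale and DSG2 from 0.47 to 0.29. DSP, at 82.8 and 64.7 FPKM, had a ratio of 0.781 (0.761 to 0.801). After GC centring DSP was at -0.42, the lowest of the 6. Of 13 adherens junction genes 11 were measured, 6 lower and 5 higher, with a median of -0.07, or 7 lower and 4 higher with a median of -0.19 after GC centring. CDH1 was not among the measured, with 16 and 25 fragments (0.169 and 0.243 FPKM), while CDH2 was at 8.11 and 8.72 FPKM. JUP, the plakoglobin of both contacts, had 248 and 158 FPKM, and its ratio was 0.634 (0.620 to 0.649). VCL, which encodes vinculin, had a ratio of 0.639 (0.617 to 0.661), and after GC centring it was at -0.76 while JUP was at -0.35. No measured gene of either list passed the 2-fold rule.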
